A study of Mus musculus with 2 samples.

Results

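The 43 genes described here encode the proteins that build elastic fibres and microfibrils, the enzymes that crosslink them, the matricellular proteins that tune how cells hold the matrix, and linkers of the basement membrane. They were chosen by gene symbol from a fixed list, made with earlier results of these data known. All 43 had an entry among the 55348 genes of the count tables. RNA of mouse hearts at stage E13.5 (strain 129sv) was sequenced in 2 libraries. The first came from hearts homozygous for the H222P allele of Lmna (Lmna H222P/H222P), a missense change in the gene of lamins A and C that is used to model laminopathy of heart and muscle. The second came from wild-type hearts of the same strain and stage. The labels give no treatment other than the RNA type, and the number and sex of the hearts behind each library are not given in the sources used here. With 1 library per genotype there is no replicate and no test, so every difference lies between these 2 libraries and the 95% intervals cover counting error only.

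In an elastic fibre, tropoelastin is laid down on a scaffold of fibrillin microfibrils. Fibulins guide its assembly and lysyl oxidases crosslink it into an insoluble polymer. Microfibrils also hold latent TGF-beta through the latent TGF-beta binding proteins. Matricellular proteins such as thrombospondins, tenascins, periostin and SPARC are secreted into the matrix but act mainly on how cells adhere and signal, and in the embryonic heart they are made largely by endocardial cushion, valve and vessel wall cells. In tissue RNA, fewer cells of a type and less RNA per cell cannot be told apart.

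Reads assigned to genes numbered 25120790 in the H222P library and 32669225 in the wild-type library, of which the 43 genes held 164883 reads (0.656%, exact binomial interval 0.653 to 0.660%) and 241760 reads (0.740%, 0.737 to 0.743%). Of the 43 genes, 42 averaged at least 1 CPM (reads per 1000000 of scaled library size), and the exception was Loxl4 with 15 and 9 reads. All 14 cardiomyocyte markers of the labelled heart were detected and summed to 17391 CPM in the H222P library and 33544 CPM in the wild-type library, with 11 of them at least 1.5-fold lower. RNA of other organs also differed between the libraries. Each of the 13 hepatocyte markers was at least 1.5-fold higher in H222P hearts, where they summed to 6135 CPM, against 35.4 CPM in the wild-type library, with Fabp1 at 0 wild-type reads. Of 11 erythroid markers 10 were higher (1657 against 214 CPM). Of 11 measured lung and gut markers 3 were higher and 4 lower (186 against 115 CPM). The last list was mixed: the foregut gene Barx1 had 1234 and 8 reads, whereas the surfactant gene Sftpc, named after its values were seen, had 1 read in the H222P library and 211 in the wild-type library. The part of these tissues in the values given here was not tested. Of all 14716 genes that averaged at least 1 CPM, 11.4% were at least 1.5-fold lower and 10.9% higher.

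Of the 42 measured matrix genes, 31 had a log2 ratio below 0 and 11 above it. At a bound of 1.5-fold, 17 of the 42 measured genes (40.5%) were lower, where 11.4% of all 14716 genes that reached a mean of 1 CPM were, and 1 (2.38%) was higher, where 10.9% of all genes were. At 2-fold, 12 genes (28.6%) were lower, against 4.35% of all genes, and the same single gene, Tgfbi, was higher, against 5.95%. The whole counting interval lay beyond 1.5-fold for 16 lower genes (6.45% of all genes) and for Tgfbi (6.80% of all genes). With scaling by total counts alone the lower genes numbered 14 at 1.5-fold (7.74% of all genes) and 9 at 2-fold (3.05%), and Tgfbi was still higher at both (15.2% and 7.31% of all genes). The median log2 ratio, H222P over wild type, was −0.41 for the 42 genes and −0.01 for all 14716. Summed over the 43 genes the level was 6225 CPM in the H222P library and 7803 CPM in the wild-type library, 1.25-fold lower. Without fibronectin, which had the most reads of the set and a log2 ratio of 0.05, the sums were 4770 and 6393 CPM, 1.34-fold lower. The liver also makes fibronectin, and the part of liver RNA in these sums was not tested.

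**Figure D1:**
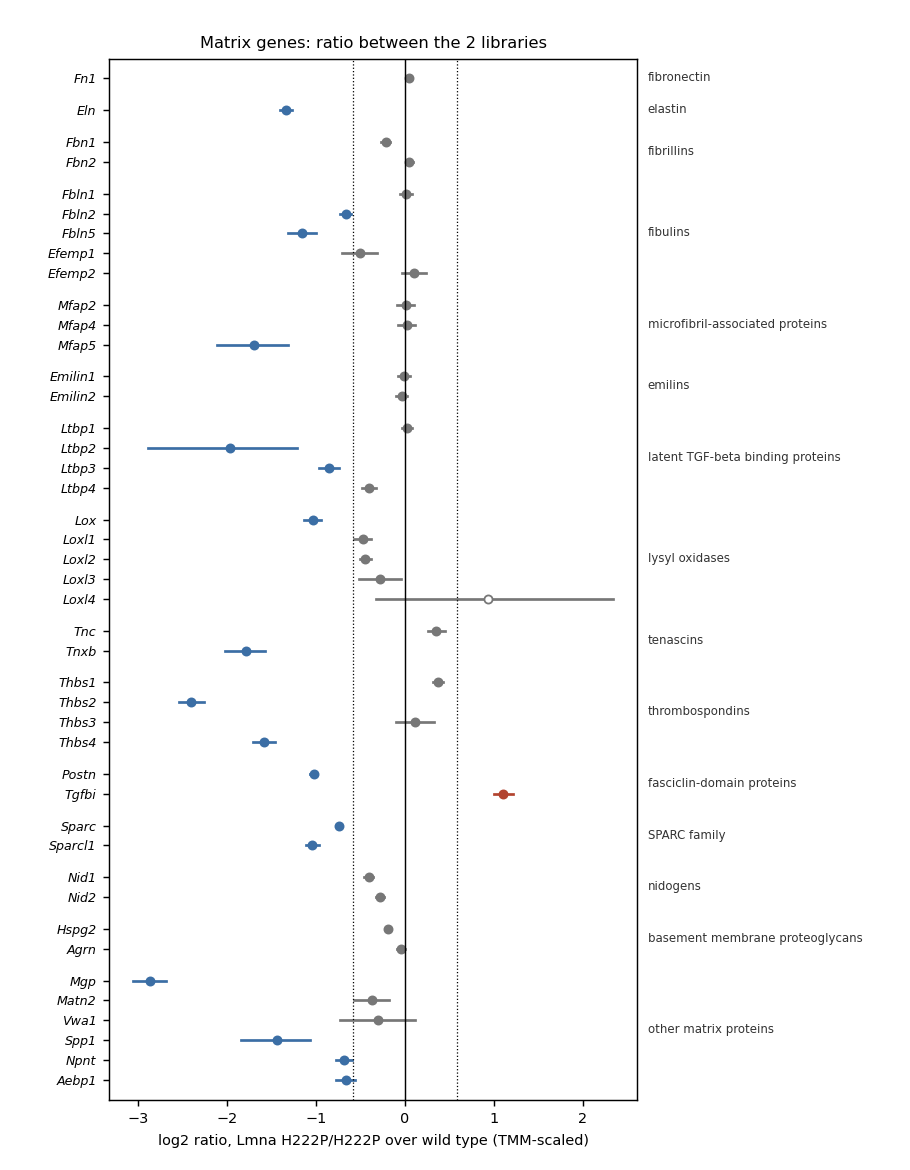
Log2 ratio of each of the 43 genes, Lmna H222P/H222P over wild type (x axis), grouped by role. Points are ratios and bars are 95% intervals of counting error; dotted lines mark 1.5-fold, blue genes lie below and the red gene above it, and the open point (Loxl4) had a mean under 1 CPM. The lowest point is Mgp at −2.86 and the highest measured point is Tgfbi at 1.10.

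Abundant and rare genes were both among the lower ones. Levels between genes are given per exon length, as RPKM (reads per kilobase of exon, scaled to library size in CPM). Exon length here is the union of all annotated exons of a gene and can exceed the length of its transcript. Ranks and ratios between genes therefore depend on these lengths, while the fold between libraries does not. Sparc was highest, at 161 RPKM in the H222P library and 269 RPKM in the wild-type library. Fibronectin (Fn1) came next at 124 and 121 RPKM. Among the 10 genes with the highest mean RPKM, 4 were at least 1.5-fold lower, namely Sparc, Postn, Sparcl1 and Mgp. The share was 11.4% of all genes with a mean of 1 CPM or more and 9.25% of those with 5 CPM or more. The median of the mean RPKM was 15.4 for the 17 lower genes and 26.0 for the 24 genes between the bounds, and their median exon lengths were 5026 and 5455 bases. These lengths ranged from 1187 to 12209 bases among the lower genes and from 1211 to 14307 bases among those between. The 5 genes with the most reads (Fn1, Sparc, Hspg2, Postn and Fbn2) held 53.8% of the set's reads in the H222P library and 52.4% in the wild-type library.

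**Figure D2:**
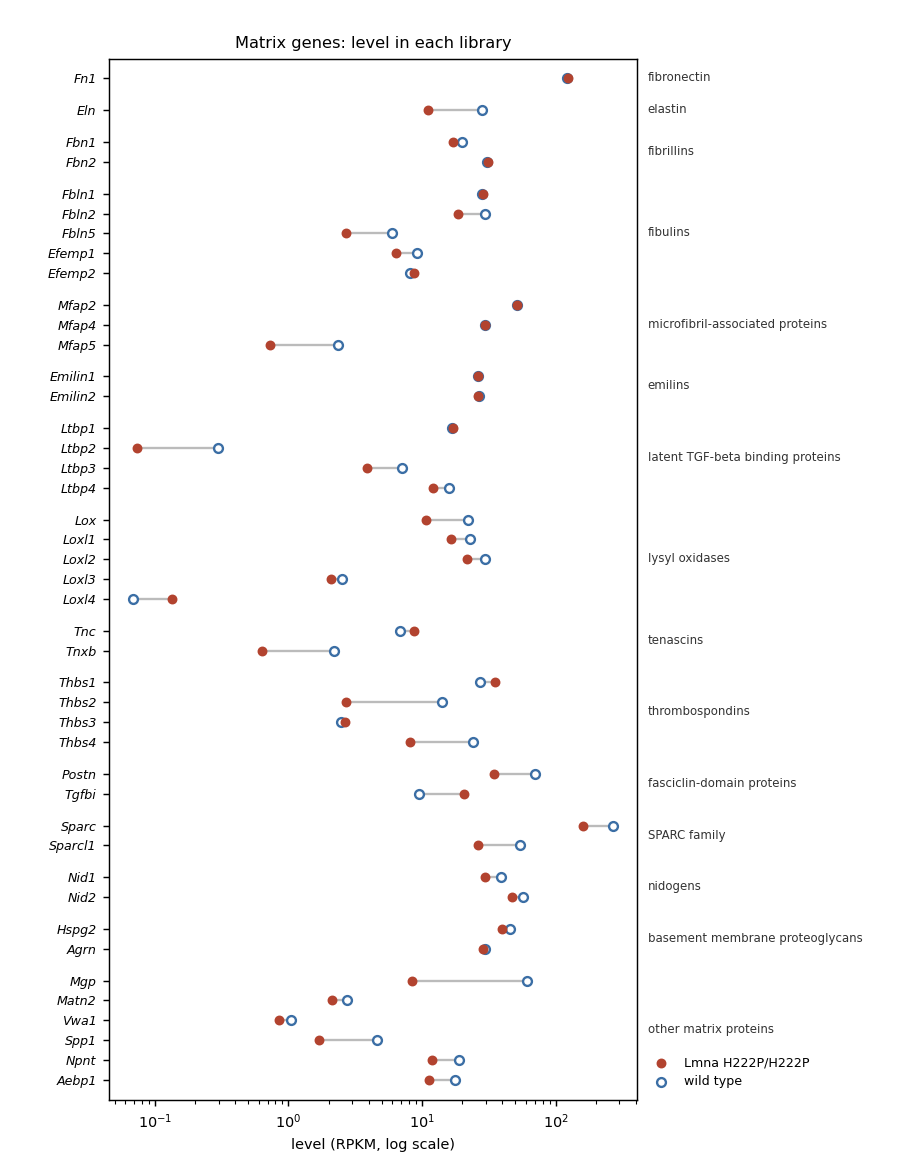
Level of each of the 43 genes in the Lmna H222P/H222P library (filled red) and in the wild-type library (open blue), in RPKM on a log axis, 1 library per genotype. Fn1, Fbn2, Mfap2, Mfap4 and both emilins have points that nearly coincide, while Thbs2, Mgp, Tnxb, Mfap5 and Ltbp2 show wide gaps.

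Elastin itself was lower, while the fibrillins of its scaffold lay within the 1.5-fold bound. Eln, the gene of tropoelastin (chromosome 5, 134702593 to 134747323, minus strand, mm10), had 2372 reads in the H222P library and 7011 in the wild-type library. It was 2.53-fold lower (2.41 to 2.65), at 11.1 RPKM in the H222P library and 27.9 RPKM in the wild-type library. The fibrillins, which form the microfibril core, differed little. Fbn2, the fibrillin most abundant in embryonic tissue, had 11007 and 12453 reads, for a log2 ratio of 0.05 (0.01 to 0.09), and Fbn1 had 5483 and 7437 reads, for a log2 ratio of −0.21 (−0.26 to −0.16). Within a library, where scaling plays no part, Eln stood at 0.648 times the length-normalised level of Fbn1 in H222P hearts (0.617 to 0.680) and at 1.41 times in wild-type hearts (1.37 to 1.46). Each of these ratios depends on the exon lengths used, but the fold between them does not. The share of Fbn2 in fibrillin reads was 66.7% (66.0 to 67.5) in H222P hearts and 62.6% (61.9 to 63.3) in wild-type hearts.

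The small glycoproteins of the microfibril surface were uneven. Mfap2, which binds fibrillin and tropoelastin, had 1649 reads in the H222P library and 1916 in the wild-type library, and Mfap4, which binds elastin and collagen, had 1517 and 1752. Their log2 ratios were 0.01 (−0.09 to 0.11) and 0.02 (−0.08 to 0.12), and the signs turned negative with DESeq2 size factors. Mfap5, the close relative of Mfap2, had only 69 H222P reads against 263 wild-type reads and was 3.24-fold lower (2.49 to 4.31). Emilin1 and Emilin2, glycoproteins at the border of elastin and microfibrils, had log2 ratios of −0.01 and −0.03 that turned positive with total-count scaling. Both emilins stood near 26 RPKM in each library, from 26.1 RPKM (Emilin2, H222P) to 26.8 RPKM (Emilin2, wild type).

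Among the fibulins, 2 of 5 were at least 1.5-fold lower, against 11.4% of all genes. Fbln5, which tethers tropoelastin to microfibrils and to cells, had 492 reads in the H222P library and 1282 in the wild-type library, 2.23-fold lower (2.01 to 2.48). Fbln2, made in the endocardial cushions and vessel wall, had 3150 and 5844 reads, 1.59-fold lower (1.52 to 1.66). Efemp2 (fibulin-4), needed for lysyl oxidase to reach elastin, had 879 and 958 reads and a log2 ratio of 0.10 (−0.03 to 0.24). Efemp1 (fibulin-3) had 346 and 575 reads, a log2 ratio of −0.51. Fbln1, an abundant cushion and vessel fibulin, had 3290 and 3827 reads, a log2 ratio of 0.01 that was negative with DESeq2 size factors. As a share of fibulin reads Fbln1 made up 40.3% in H222P hearts (39.3 to 41.4) and 30.7% in wild-type hearts (29.8 to 31.5), and Fbln2 38.6% and 46.8%.

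The latent TGF-beta binding proteins, microfibril-associated carriers of the growth factor, were also uneven. Ltbp1 was the main form, with 4854 reads in the H222P library and 5573 in the wild-type library, and its log2 ratio was 0.03 (−0.03 to 0.08), close to 0 and negative with DESeq2 size factors. Ltbp3 had 932 and 1974 reads, 1.81-fold lower (1.67 to 1.96). Ltbp4, which also takes part in elastic fibre assembly with Fbln5, had 2068 and 3205 reads, 1.32-fold lower. Ltbp2, the form that does not bind latent TGF-beta, was rare in both, with 16 and 75 reads, and 3.91-fold lower with a wide interval (2.31 to 7.37). The share of Ltbp1 in the reads of the family was 61.7% in H222P hearts (60.6 to 62.8) and 51.5% in wild-type hearts (50.5 to 52.4).

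Of the crosslinking enzymes, Lox was the one past 1.5-fold. Lox, the main lysyl oxidase of elastin and collagen, had 1360 reads in the H222P library and 3263 in the wild-type library, 2.05-fold lower (1.92 to 2.19). Loxl1, which acts on elastin, had 1439 and 2334 reads, 1.39-fold lower (1.3 to 1.48). Loxl2, which crosslinks collagen of basement membranes, had 3107 and 4947 reads, 1.36-fold lower (1.3 to 1.42), and was the most abundant of the family at 21.7 RPKM in the H222P library and 29.5 RPKM in the wild-type library. Loxl3 had 253 and 359 reads, for a log2 ratio of −0.28 (−0.52 to −0.04), at a locus where 65.1% of H222P and 58.4% of wild-type reads lay on the opposite strand. Loxl4, with 15 and 9 reads, had an interval of −0.32 to 2.34 on the log2 scale, so no difference was detectable at this depth. The length-normalised ratio of Lox to Eln was 0.972 (0.908 to 1.04) in H222P hearts and 0.789 (0.756 to 0.822) in wild-type hearts.

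Thrombospondins, trimeric or pentameric glycoproteins that bind cell surfaces and growth factors, showed the widest range within a family. Thbs2 (chromosome 17, 14665500 to 14694235, minus strand), a modulator of collagen fibrils and of angiogenesis, had 498 reads in the H222P library and 3073 in the wild-type library. Its log2 ratio of −2.40 (−2.54 to −2.26) stood 79th from the lowest of 14716 genes. Thbs4, a form of muscle and tendon matrix, had 704 and 2461 reads, 2.99-fold lower (2.75 to 3.25). Thbs1, an activator of latent TGF-beta, had 5621 and 5075 reads, 1.3-fold higher (1.25 to 1.35). Thbs3, another pentameric form, had 340 and 368 reads, for a log2 ratio of 0.11 (−0.10 to 0.33). Comp, a pentameric thrombospondin outside the 43 genes that is named after its values were seen, had 20 and 56 reads, 2.36-fold lower (1.41 to 4.21). Among the 4 forms of the set, Thbs1 thus made up 78.5% of thrombospondin reads in H222P hearts (77.5 to 79.4) and 46.2% in wild-type hearts (45.3 to 47.2), whereas Thbs2 made up 6.95% (6.37 to 7.57) and 28.0% (27.2 to 28.8). Per length, Thbs1 stood 13.0 times above Thbs2 in H222P hearts (11.9 to 14.3) and 1.90 times above it in wild-type hearts (1.82 to 1.99).

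The tenascins parted in a like manner. Tnc, an anti-adhesive glycoprotein of remodelling tissue, had 1783 reads in the H222P library and 1634 in the wild-type library, 1.28-fold higher (1.19 to 1.37). Tnxb, a tenascin of mature connective tissue that binds collagen, had 204 and 825 reads and was 3.45-fold lower (2.96 to 4.05). A copy of part of this gene, Tnxa, had 0 reads in both libraries, and reads that fit both places were left out by the counting. Tnxb made up 10.3% of tenascin reads in H222P hearts (8.97 to 11.7) and 33.6% in wild-type hearts (31.7 to 35.5).

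**Figure D3:**
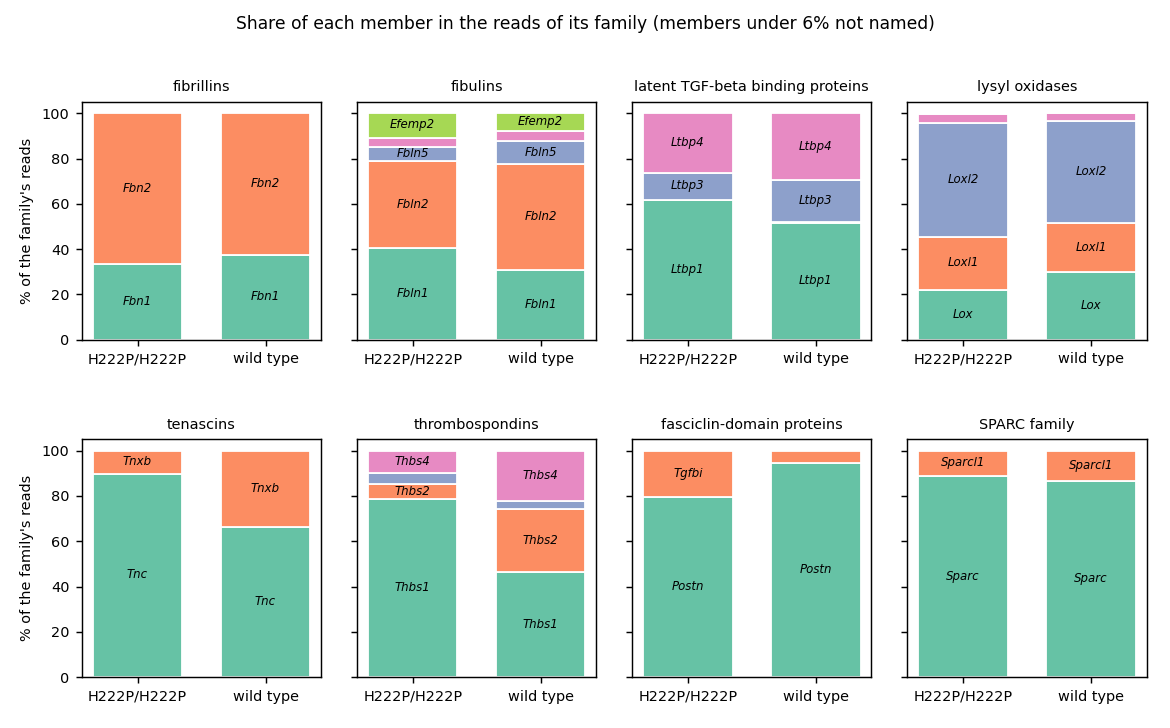
Share of each gene in the reads of its family (y axis, percent), with the Lmna H222P/H222P library left of the wild-type library in each of 8 families. The shares do not depend on scaling between libraries; Thbs1 fills 78.5% of the thrombospondin bar in H222P hearts and 46.2% in wild-type hearts, and Tgfbi 20.4% and 5.55% of the fasciclin-domain bar.

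Periostin and its relative Tgfbi lay on opposite sides. Both are secreted proteins with fasciclin domains that bind collagen and integrins. Postn, a marker of valve and cushion mesenchyme (chromosome 3, 54361109 to 54391037), had 7966 reads in the H222P library and 18949 in the wild-type library, and its log2 ratio was −1.02 (−1.06 to −0.99). Tgfbi, induced by TGF-beta in many cell types (chromosome 13, 56609523 to 56639562), had 2046 and 1113 reads, and its log2 ratio was 1.10 (1.0 to 1.21), 767th from the highest of 14716 genes. The Postn level per length was 1.69 times that of Tgfbi in H222P hearts (1.61 to 1.77) and 7.38 times in wild-type hearts (6.94 to 7.84).

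The promoters of this pair and of Thbs2 are shown because Tgfbi was the one gene past 1.5-fold higher, Postn is its relative, and Thbs2 had the lowest log2 ratio of the genes with a promoter in the table. They are the 250 bases before the RefSeq start site (GRCm38.p6, the same assembly as mm10), 5′ to 3′ on the gene's strand, with each TATAAA or GGGCGG on either strand in capitals. The windows are chr3:54360857-54361106 (plus strand), chr13:56609336-56609585 (plus strand) and chr17:14694263-14694512 (minus strand). The RefSeq start of Tgfbi lies downstream of the gene start given above (56609523), so the last bases of its window fall inside the gene as placed there.
Postn: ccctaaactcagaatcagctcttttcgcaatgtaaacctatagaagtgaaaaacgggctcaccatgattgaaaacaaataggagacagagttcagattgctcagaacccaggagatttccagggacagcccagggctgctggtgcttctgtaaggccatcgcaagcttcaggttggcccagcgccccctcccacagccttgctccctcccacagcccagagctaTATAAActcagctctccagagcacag
Tgfbi: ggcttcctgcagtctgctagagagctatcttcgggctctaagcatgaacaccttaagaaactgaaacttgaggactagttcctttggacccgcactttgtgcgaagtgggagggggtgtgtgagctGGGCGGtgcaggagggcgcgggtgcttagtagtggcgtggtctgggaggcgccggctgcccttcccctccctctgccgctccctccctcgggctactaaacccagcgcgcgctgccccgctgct
Thbs2: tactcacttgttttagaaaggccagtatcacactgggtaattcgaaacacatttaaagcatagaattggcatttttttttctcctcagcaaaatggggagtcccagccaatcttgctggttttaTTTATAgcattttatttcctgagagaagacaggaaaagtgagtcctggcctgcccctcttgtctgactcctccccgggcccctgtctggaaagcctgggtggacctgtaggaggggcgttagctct
The Postn window held a TATAAA that began 26 bases before the start, the usual place of a TATA box. In the Thbs2 window the same letters lay on the opposite strand, 126 bases before the start, and Tgfbi had none but held a GGGCGG, the core of a GC box, 124 bases before the start. Over the 28 of 43 genes with a promoter in the table, TATAAA was present in 3 of the 12 that were at least 1.5-fold lower (Postn, Spp1 and Thbs2) and in 1 of the other 16 (Tnc), against 14.3% of all 27025 genes. GGGCGG was present in 5 of the 12 and in 14 of the 16, against 35.4% of the 27025 genes. Those 27025 genes were not filtered by level, unlike the 14716 behind the other shares. They are therefore no matched background for these genes, nearly all of which passed the filter. The 16 also include Tgfbi, which was higher, and Loxl4, which averaged under 1 CPM. These motifs do not overlap each other, were picked after the ratios were known, and a match is a description of letters, not of a bound site.

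SPARC proteins, which bind collagen and calcium and loosen cell adhesion, were both lower. Sparc had 16132 reads in the H222P library and 31552 in the wild-type library, 1.67-fold lower (1.64 to 1.70). Sparcl1, also called hevin, had 2044 and 4913 reads, 2.05-fold lower (1.95 to 2.16). Their shares within the pair were near each other, with Sparc at 88.8% in H222P hearts and 86.5% in wild-type hearts. Sparcl1 lies 321 kilobases from Spp1 on chromosome 5, 1 of 3 pairs of these genes that lie less than 1000 kilobases apart. Spp1, osteopontin, a cytokine-like matrix protein of macrophages and mineralising cells, had 74 and 236 reads, 2.71-fold lower (2.09 to 3.59). Efemp2 and Ltbp3, neighbours on chromosome 19, had log2 ratios of 0.10 and −0.86. Vwa1 and Agrn, neighbours on chromosome 4, had −0.30 and −0.05. A part of position in these ratios was not tested.

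Mgp had the lowest ratio of the 43 genes. This small protein inhibits mineralisation of vessel walls and cartilage (chromosome 6, 136872435 to 136875823, minus strand). It had 265 reads in the H222P library and 2255 in the wild-type library, 8.43 against 61.3 RPKM. Its log2 ratio of −2.86 (−3.05 to −2.68) stood 43rd from the lowest of 14716 genes. Npnt, nephronectin, a ligand of integrin alpha-8 beta-1, had 1575 and 2961 reads, 1.61-fold lower (1.51 to 1.71). Aebp1, a collagen-binding carboxypeptidase-like protein of connective tissue, had 1203 and 2235 reads, 1.59-fold lower (1.48 to 1.70). Matn2, a matrilin adaptor, had 352 and 534 reads, 1.3-fold lower (1.13 to 1.49), within the bound.

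Basement membrane linkers and fibronectin lay within the 1.5-fold bound. Fn1 had 38530 reads in the H222P library and 43675 in the wild-type library, a log2 ratio of 0.05 (0.03 to 0.07). It was 0.02 with DESeq2 size factors and 0.20 with total-count scaling, both outside that counting interval. Hspg2, perlecan, had 15073 and 20112 reads, for a log2 ratio of −0.19 (−0.22 to −0.16), and Agrn, agrin, had 6987 and 8446, a log2 ratio of −0.05 that was positive with total-count scaling. The nidogens, which bridge laminin and collagen IV, were both slightly lower, Nid1 by 1.33-fold (1.28 to 1.37) and Nid2 by 1.22-fold (1.18 to 1.26). Vwa1, a perlecan-binding protein, had 81 and 117 reads with an interval of −0.73 to 0.12, so no difference was detectable at this depth. In all, 11 of the 42 measured genes lay within 0.15 of a log2 ratio of 0: Agrn, both emilins, Fbln1, Mfap2, Mfap4, Ltbp1, Fn1, Fbn2, Efemp2 and Thbs3.

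Other genes of the same pathways were counted from lists of their receptors, enzymes and relatives, against the same shares of all genes (11.4% lower, 10.9% higher). Of 17 measured matrix receptors, 2 were at least 1.5-fold lower and 3 higher. Itgb1, the common beta-1 integrin subunit, had 27978 reads in the H222P library and 49290 in the wild-type library, 1.51-fold lower (1.48 to 1.53). Cd36, a thrombospondin receptor and fatty acid transporter, was 3.82-fold lower (3.63 to 4.02), whereas Itga4, an integrin subunit of blood cells and epicardium, had 2031 and 440 reads, 5.40-fold higher (4.87 to 6.0). Of 29 other matricellular and microfibril genes, 6 were lower and 4 higher (median −0.35). Ecm2 had 75 and 322 reads, 3.65-fold lower (2.85 to 4.78), and Mmrn2, an endothelial emilin relative, was 1.65-fold lower (1.55 to 1.77). Fstl1, the most abundant of that list, was 1.34-fold lower (1.32 to 1.37), and Spock3 1.77-fold higher (1.43 to 2.21).

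Of 15 measured enzymes that process or crosslink matrix, 1 was at least 1.5-fold lower and 2 higher (median −0.06). The shares of all genes were 11.4% lower and 10.9% higher. Tgm2, transglutaminase 2, which crosslinks fibronectin and other proteins, had 7292 reads in the H222P library and 15099 in the wild-type library, 1.77-fold lower (1.72 to 1.82). Atp7a, the transporter that supplies copper to lysyl oxidases, had 1570 and 1051 reads, 1.75-fold higher (1.62 to 1.89). The collagen chaperone Serpinh1 was 1.41-fold lower (1.38 to 1.43) and the procollagen enhancer Pcolce 1.43-fold lower (1.33 to 1.54). Its relative Pcolce2 went the other way, with 138 and 34 reads, 4.70-fold higher (3.24 to 7.13). Pcolce2 averaged 3.15 CPM, under the bound for naming, and is named after its values were seen. Of 13 genes of latent TGF-beta and its signalling, 0 were lower and 1 was higher, beside the same shares of all genes. That gene, Nrros, which anchors latent TGF-beta on macrophages, had 216 and 154 reads, 1.64-fold higher (1.33 to 2.03). Lrrc32, the other anchor of latent TGF-beta, had 139 and 217 reads, 1.33-fold lower (1.07 to 1.66), within the bound. The type I receptor Tgfbr1 was 1.18-fold higher (1.13 to 1.23) and the type II receptor Tgfbr2 1.38-fold lower (1.29 to 1.47).

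**Figure D4:**
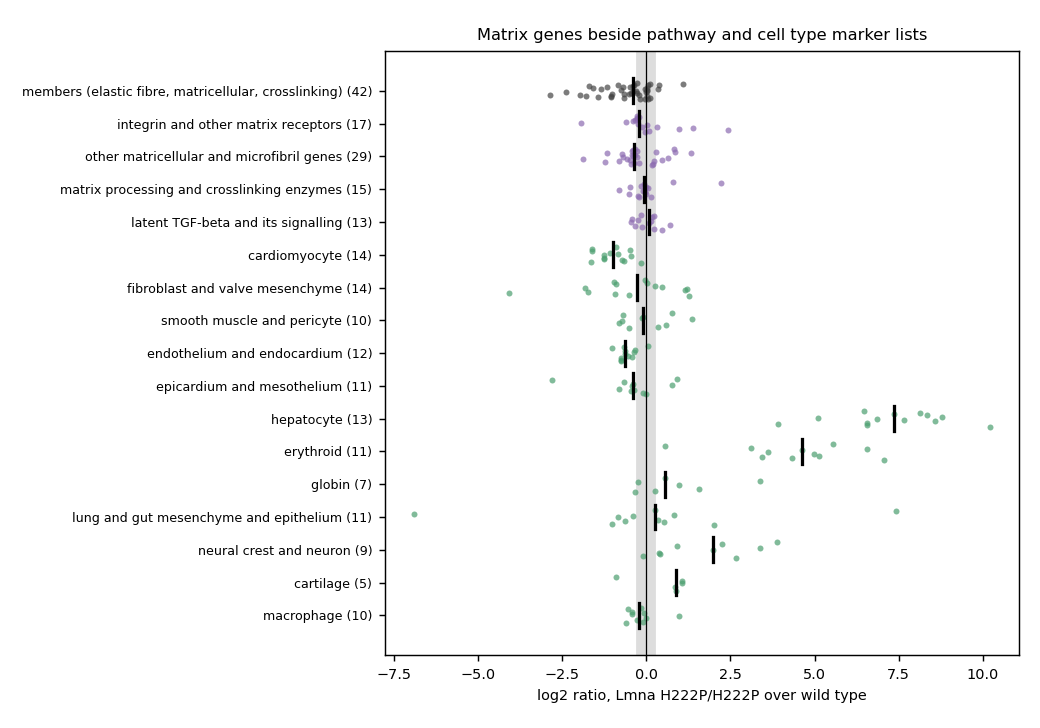
Log2 ratio, Lmna H222P/H222P over wild type, of each measured gene (mean of 1 CPM or more, points) and the list median (black bar), for the matrix genes (top), 4 pathway lists (purple) and 12 marker lists (green), with the number of genes in brackets; the grey band spans the lower to the upper quartile of all genes. Fabp1, with 0 wild-type reads, is drawn at its lower bound; the hepatocyte markers and 10 of 11 erythroid markers lie at least 1.5-fold to the right of 0, and the 42 matrix genes span −2.86 to 1.10.

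Markers of the cells that make these proteins were counted in the same way, and their part in the result was not tested. Of all genes, 11.4% were at least 1.5-fold lower and 10.9% higher. Fibroblast and valve mesenchyme markers summed to 3073 CPM in the H222P library and 5164 CPM in the wild-type library, with 6 of 14 at least 1.5-fold lower and 3 higher. They went both ways: Col1a1 had 9415 and 38960 reads, a log2 ratio of −1.82, while Pdgfra had 4900 and 2391 reads, a log2 ratio of 1.26. Of 10 smooth muscle and pericyte markers, 3 were lower and 3 higher (1159 against 1508 CPM). Of 12 endothelial and endocardial markers, 7 were lower and 0 higher (672 against 1012 CPM). Of 11 epicardial markers, 3 were lower and 2 higher (504 against 595 CPM). Macrophage markers, beside the low level of Spp1, summed to 107 CPM in the H222P library and 131 CPM in the wild-type library. Of these markers 1 of 10 was higher and 1 lower, close to the shares of all genes. Growing airways and lung vessels also make elastin and Mgp, and the lung epithelial gene Nkx2-1 had 161 reads in the H222P library and 381 in the wild-type library. Its list of 11 measured lung and gut markers went both ways, with 3 higher and 4 lower and a median log2 ratio of 0.27. The sum was higher in H222P hearts (186 against 115 CPM), but it mixes tissues and does not measure lung RNA. It includes the foregut gene Barx1, which had far more reads in the H222P library, as given above. The surfactant gene Sftpc, like Nkx2-1, had fewer reads in the H222P library. Of 5 measured markers of cartilage, another tissue that makes Mgp, 4 were higher in the H222P library and 1 lower (306 against 159 CPM over the list), with Matn1 at 2 and 0 reads and Snorc at 0 in both libraries. Neuronal and neural crest markers were higher in 6 of 9 cases (75.3 against 26.8 CPM).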

How the data were processed

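RNA of embryonic hearts was extracted with a Zymo Research kit for total RNA libraries, 1 per genotype, per the labels' protocols. The deposited values are raw read counts per gene. STAR, HTSeq, DESeq and the build mm10 are named in the submitters' processing notes, with no version and no role, and the gene annotation used is not stated there. A deposited table has 3 count columns (unstranded, forward and reverse) and 4 summary entries, a layout of STAR. The reverse column held 20.5 times (H222P) and 19.3 times (wild type) the reads of the forward column and was used here. It assigned 82.0% of 30641442 H222P reads and 82.8% of 39445195 wild-type reads to genes. The summary entries stayed out of library sizes (unmapped 5.10% and 5.40%, multiply mapped 6.09% and 5.37%, outside genes 4.45% and 3.88%, ambiguous 2.38% and 2.53%).

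Libraries were scaled with TMM factors (edgeR 4.0.16, R 4.3.3; 1.05 for H222P, 0.948 for wild type). Log2 ratios put H222P over wild type with a prior count of 0.5 per library. Exact Clopper-Pearson 95% intervals (Python 3.11.15, scipy 1.17.1) cover counting error only. They leave out variation between hearts and the error of the scaling. Reads that carry no molecular identifier are not independent molecules, so the intervals may be too narrow even for counting error. A floor of 3 reads equals 0.113 CPM in H222P and 0.0968 CPM in wild type. RPKM used the union exon length of GENCODE M21 (GRCm38, the assembly of mm10), which matched 53244 of 55348 entries by symbol. With 1 library per group, genes of 1 CPM or more on average were described by fold, without a test. The steps were tested on simulated counts drawn from a shared profile, with as many changed genes set higher as lower. That simulation does not test how the scaling handles the tissue differences between these libraries. The genes and lists were chosen with earlier results of these data known. All 43 genes could be named. In each pathway list the most abundant gene, the highest and the 2 lowest (average of 5 CPM or more) were named, and in the marker lists some genes of the same kinds and some at 0 reads. The processing alternatives covered the scaling (size factors of DESeq2 1.42.0, total counts, scaling without globins and marker genes of other tissues), the filter (none, 5 CPM), the prior count (5), the strand (unstranded column) and the depth (deeper library thinned).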

Additional observations from a re-analysis of the deposited data

How the results depend on the processing

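No paired analysis was possible because each genotype has 1 library and the labels give no replicate numbers, and for the same reason no replicate could be left out. Under 8 alternatives the number of genes at least 1.5-fold lower ranged from 14 to 17 and that at least 2-fold lower from 9 to 12. Without a filter 2 genes were at least 1.5-fold higher, since Loxl4 (15 and 9 reads) joined Tgfbi. Scaling by total counts moved the median of the matrix genes from −0.41 to −0.25 and that of all genes from −0.01 to 0.15, so the gap between them was −0.40 under both. With that scaling 15.2% of all genes were at least 1.5-fold higher and 7.74% lower. Fbln2 (−0.51), Npnt (−0.53) and Aebp1 (−0.51) then fell inside 1.5-fold, and Lox (−0.88), Postn (−0.87) and Sparcl1 (−0.89) inside 2-fold. Across the settings that change the values, 7 genes changed sign, all within 0.15 of 0 in the reported values and none past 1.5-fold. The cause was not tested. Of 334 log2 ratios of single genes under the alternatives, 34 lay outside the counting interval of the reported value. Depth limits Loxl4, Ltbp2, Vwa1, Mfap5 and Spp1 most.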
